A study of Mus musculus with 11 samples.

Results

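The 10 gene copies of the histidine tRNA with the anticodon GTG (HisGTG) were followed in small RNA libraries of the embryonic mouse brain, with and without the RNA methyltransferase NSUN2. They are all rows of the count files whose name ends in -HisGTG, 10 of 433 tRNA genes, and form 1 of 53 isoacceptor families. The family was chosen by its measured difference in counts between Nsun2 -/- and wild-type brains at E18.5 (E, embryonic day), so that this difference is described below without a test. Libraries were made from the frontal lobe of C57BL/6 embryos that either carried Nsun2 (wild-type, WT) or lacked it (Nsun2 -/-, a gene-trap line). At E18.5 there were 4 Nsun2 -/- and 4 WT samples, at E13.5 there were 2 Nsun2 -/- samples and 1 WT sample, and the methods describe replicates as separate biological samples. The knockout is constitutive, so cells of every type in the lobe lack the enzyme. The files hold tRNA genes and no others, so neither Nsun2 itself nor markers of the tissue could be checked.

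Histidine tRNA reads the 2 histidine codons and differs from other tRNAs by an extra G at its 5′ end. The enzyme THG1 adds this base after transcription, and histidyl-tRNA synthetase needs it to recognise the tRNA. NSUN2 places methyl groups on cytosines of many tRNAs, and tRNAs that lack these groups are cut more readily by the nuclease angiogenin.

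The copies lie in 2 clusters and 1 single gene. On chromosome 2 there were 3 copies within 2546 bases. They are chr2.trna1432-HisGTG (chr2:122201230-122201301, minus strand), chr2.trna1431-HisGTG (chr2:122203099-122203170, minus strand) and chr2.trna586-HisGTG (chr2:122203704-122203775, plus strand). On chromosome 3 there were 6 copies over 90369 bases. On the plus strand these are chr3.trna291-HisGTG (chr3:96213992-96214063), chr3.trna293-HisGTG (chr3:96239895-96239966) and chr3.trna295-HisGTG (chr3:96256418-96256489). On the minus strand they are chr3.trna751-HisGTG (chr3:96261993-96262064), chr3.trna749-HisGTG (chr3:96267895-96267966) and chr3.trna747-HisGTG (chr3:96304289-96304360). The remaining copy is chr4.trna1697-HisGTG (chr4:82265527-82265598, minus strand). Each tRNA is 72 bases long, and reads were counted over 112 bases, with 20 bases added on each side. Positions are those of the files, whose header names an mm9 annotation. RefSeq's GRCm38.p6 lists the same number of genes on each of these chromosomes with 7 of 7 equal spacings, but none of the 10 start positions is the same.

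**Figure D1:**
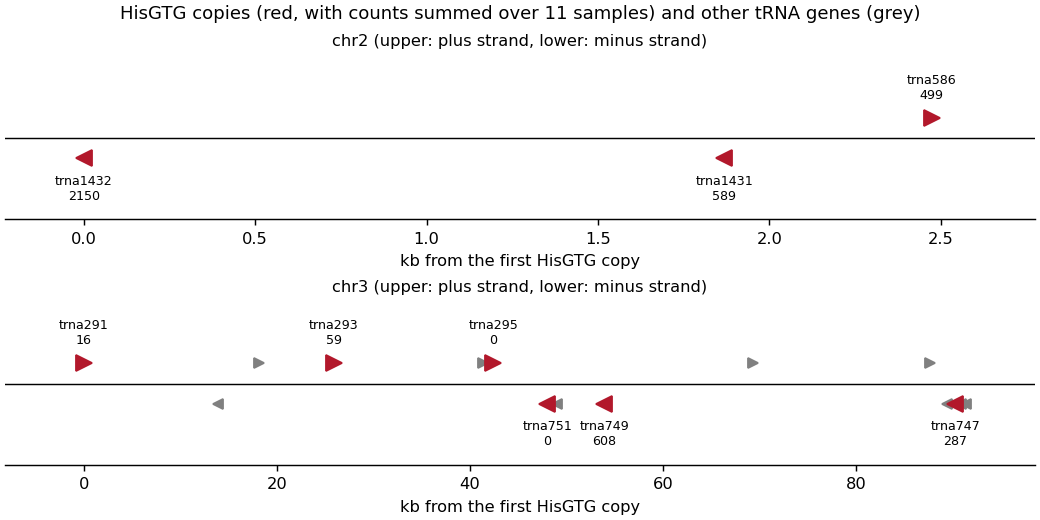
HisGTG copies on chromosomes 2 and 3, plotted as kb from the first copy on each chromosome, with plus-strand genes above and minus-strand genes below the line. Red arrowheads are HisGTG copies with their counts summed over 11 samples, and grey arrowheads are tRNA genes of other families. The highest sum, 2150, belongs to trna1432, and trna295 and trna751 have 0.

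Sequences listed for different copies can be much alike or the same, so that a read can have more than 1 possible source. They were taken from the fragment lists of the study, which were held in part. These are sequences of fragments, and those of the genes could not be checked. Written 5′ to 3′ with the CCA end, the sequence listed for trna1431, trna1432 and trna747 is compared here with the one listed for trna749 alone, with capitals at the bases that differ.
HisGTG, trna1431, trna1432 and trna747: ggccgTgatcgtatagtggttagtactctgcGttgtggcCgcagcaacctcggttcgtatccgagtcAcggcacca
HisGTG, trna749: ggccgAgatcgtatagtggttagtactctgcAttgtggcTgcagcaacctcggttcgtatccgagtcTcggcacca
Both are 76 bases long and share 72. Counted from 1 at the 5′ end, the substitutions from the common sequence to that of trna749 are T6A, G32A, C40T and A68T. Positions 6 and 68, and positions 32 and 40, are complementary bases in both sequences. A 34-base piece from the 5′ side is also listed for trna749 alone and holds 2 of these differences.
HisGTG 5′ piece, trna749: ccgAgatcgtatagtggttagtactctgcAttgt

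The 5′ base, the position of the added G, sets other listed sequences apart. In capitals is the base that replaces this G.
HisGTG, trna586 and trna747: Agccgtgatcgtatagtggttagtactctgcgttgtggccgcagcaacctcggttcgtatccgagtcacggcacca
HisGTG, trna291 and trna1697: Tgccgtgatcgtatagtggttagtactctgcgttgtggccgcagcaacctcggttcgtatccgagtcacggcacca
A longer sequence of 86 bases is listed for trna586 alone. It starts 18 bases upstream of the tRNA, shown in capitals, and ends before the CCA. Within the tRNA it also differs from the other sequences printed here, with ttcgaatcc where they have ttcgtatcc. This base is not in capitals, and which base the genes carry could not be checked.
HisGTG with leader, trna586: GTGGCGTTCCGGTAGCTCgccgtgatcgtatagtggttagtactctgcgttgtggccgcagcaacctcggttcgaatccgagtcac
By contrast, a 29-base 3′ piece is listed for each of the 10 copies, trna749 included, although its last part carries the common base of A68T.
HisGTG 3′ piece, 10 copies: cctcggttcgtatccgagtcacggcacca
Alignment allowed up to 2 mismatches and kept reads with a single best place. Counts of single copies are therefore less certain than the family sum, and the files do not tell fragments from whole tRNAs.

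HisGTG had the highest mean share of counts among the families, with 4469 reads over the 11 samples. This is a rank of counted reads and not of tRNA amount, as only reads with a single best place were kept. Total counts over tRNA genes lay between 4011 and 9827 per sample, and the smallest share that can be seen, 3 counts, between 0.0305% and 0.0748% of a sample. Intervals are 95% Wilson intervals and cover counting error, not the spread between embryos. At E13.5 the family made up 9.38% (8.82% to 9.97%) and 8.52% (7.81% to 9.29%) of counts in the Nsun2 -/- samples and 7.63% (7.03% to 8.29%) in the WT sample. At E18.5 the shares were 6.95%, 7.27%, 7.04% and 6.58% in Nsun2 -/- and 6.00%, 5.13%, 5.69% and 6.06% in WT brains. The 3 samples at E13.5 lay above the 8 at E18.5, but overlap between stages was not counted over all families, so nothing more is read from it. At E18.5, the contrast that chose the family, the genotypes did not overlap. As the samples are bulk tissue, fewer cells of a type and less RNA per cell cannot be told apart.

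**Figure D2:**
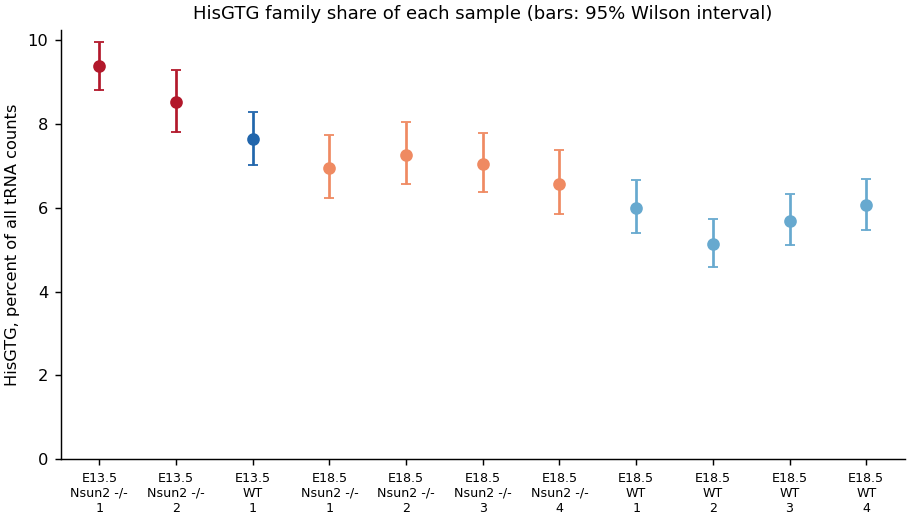
HisGTG reads as a percent of all tRNA gene counts (y axis) in each of the 11 samples (x axis), with 95% Wilson intervals as bars. Samples at E13.5 lie between 7.63% and 9.38%, and samples at E18.5 between 5.13% and 7.27%.

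The first comparison asked whether the family changed between E13.5 and E18.5, as the mean of the genotypes, so that the genotype difference that chose the family cancels. HisGTG fell by 0.45 on the log2 scale (standard error 0.082, edgeR quasi-likelihood test, Benjamini-Hochberg adjusted p = 5.32e-05). The fall was 0.44 in Nsun2 -/- and 0.45 in WT (log2 values of -0.44 with standard error 0.10 and -0.45 with standard error 0.13, given without a test), the latter against a single WT sample at E13.5. Of 47 families tested, 19 were called in this comparison (40.4%), 10 higher (21.3%) and 9 lower (19.1%) at E18.5, and their median log2 difference was -0.01.

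Within the family the copies did not move as a block. Of the 10 copies, 7 had enough reads to be tested, 4 were called lower, 1 of them (trna1431) through a single sample, and 1 rose, while 45 of 155 tRNA genes were called (29%), 18 higher (11.6%) and 27 lower (17.4%). These 7 had passed a filter that asks for 0.183% of the counts in at least 1 sample, so their number describes the copies that are seen and not all 10. Of the copies, trna1697 and trna293 passed it through samples at E18.5 alone, the stage where they were higher, so that passing the filter favours this direction. With the main normalization (TMM) the median log2 difference of all genes was -0.11, against 0.00 with library size alone, where 23 genes were higher and 18 lower. With either scaling 5 of the 7 tested HisGTG copies were called.

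The largest fall was that of trna749, whose full-length sequence printed above is listed for it alone in the part of the lists held. A link between sequence and fall was not tested. At E13.5 it had 157 and 104 counts in Nsun2 -/- and 93 in WT, which are 1.60%, 1.90% and 1.37% of the samples' counts. At E18.5 it had 31, 23, 42 and 29 counts in Nsun2 -/- (0.697%, 0.487%, 0.835% and 0.723%) and 25, 33, 38 and 33 in WT (0.464%, 0.570%, 0.696% and 0.557%). The stages did not overlap, whichever genotype is taken. Overlap between stages was not counted over all tRNA genes, so nothing is read from its absence here or in the copies below. Its log2 difference was -1.42 (standard error 0.14, edgeR adjusted p = 1.47e-09), with -1.44 in Nsun2 -/- and -1.39 in WT. Its share of the family went from between 17.0% and 22.3% to between 6.71% and 12.2%.

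The copy on chromosome 4 moved the other way. Counts of trna1697 were 12 and 7 in Nsun2 -/- and 11 in WT at E13.5. At E18.5 they were 35, 39, 34 and 11 in Nsun2 -/- and 29, 18, 28 and 37 in WT. As shares of all counts these are 0.122% to 0.161% at E13.5 and 0.274% to 0.827% at E18.5, without overlap. The log2 difference was 1.86 (standard error 0.30, edgeR adjusted p = 1.51e-05), with 2.26 in Nsun2 -/- and 1.47 in WT. The copy passed the filter through samples at E18.5 alone, where it was higher, so this p is favoured by the filter. Without a filter, where every gene with a read was tested, the log2 difference was 1.96 (edgeR adjusted p = 5.95e-12). The lowest value at E18.5 came from Nsun2 -/- replicate 4, where the copy took 4.17% of the family (2.34% to 7.31%), against 1.30% to 2.12% at E13.5. The full-length sequence printed above with T as the 5′ base is listed for this copy and for trna291, which had at most 3 counts in a sample.

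On chromosome 2, trna586 and trna1432 were lower at E18.5 in both genotypes, by unlike amounts, while trna1431 was lower in WT alone. For trna586 the share of all counts was 1.06% and 1.04% in Nsun2 -/- and 1.01% in WT at E13.5. At E18.5 it was 0.900%, 0.784%, 0.796% and 0.698% in Nsun2 -/- and 0.594%, 0.535%, 0.531% and 0.540% in WT. The stages did not overlap. Its log2 difference was -0.77 (standard error 0.13, edgeR adjusted p = 3.09e-05). Within Nsun2 -/- it was -0.51 (standard error 0.16) and within WT -1.02 (standard error 0.21), the latter against a single sample at E13.5.

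The copy with the most reads was trna1432, with 2150 of 4469 and shares of 5.05% and 4.14% of all counts in Nsun2 -/- and 3.07% in WT at E13.5. At E18.5 they were 3.10%, 3.60%, 3.26% and 3.29% in Nsun2 -/- and 2.82%, 2.28%, 2.75% and 3.04% in WT. The stages overlapped through the WT sample at E13.5. The log2 difference was -0.46 (standard error 0.11, edgeR adjusted p = 0.00190). Within Nsun2 -/- it was -0.60 (standard error 0.13) and within WT -0.31 (standard error 0.18), again against a single WT sample at E13.5.

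The neighbouring trna1431 had 94 and 44 counts in Nsun2 -/- and 100 in WT at E13.5 (0.957%, 0.803% and 1.47% of all counts). At E18.5 it had 46, 50, 45 and 40 in Nsun2 -/- and 42, 39, 39 and 50 in WT, or 0.674% to 1.06% of all counts. The log2 difference was -0.53 (standard error 0.13, edgeR adjusted p = 0.00144), but within Nsun2 -/- it was 0.04 (standard error 0.16) and within WT -1.10 (standard error 0.19). The call for this copy therefore rests on the single WT sample at E13.5, and DESeq2 did not make it (adjusted p = 0.0875).

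The other copies of chromosome 3 were low or absent. For trna747 the counts were 55 and 25 in Nsun2 -/- and 32 in WT at E13.5, and 11, 17, 20 and 18 in Nsun2 -/- and 30, 34, 22 and 23 in WT at E18.5. Its log2 difference of -0.36 (standard error 0.20) did not pass (edgeR adjusted p = 0.190). Counts of trna293 were 1, 2 and 6 at E13.5 and 1 to 11 at E18.5, with a log2 difference of 1.38 (standard error 0.57) that did not pass (edgeR adjusted p = 0.0676). This copy entered the test through the 11 counts of WT replicate 1 at E18.5 alone, and without that sample it was not tested. There were 16 reads of trna291 over 11 samples, too few to be tested. No read was counted for trna295 or trna751 in any sample, which allows each up to 3 counts, or 0.0748% of the counts in the smallest library. These limits hold for reads with a single best place.

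**Figure D3:**
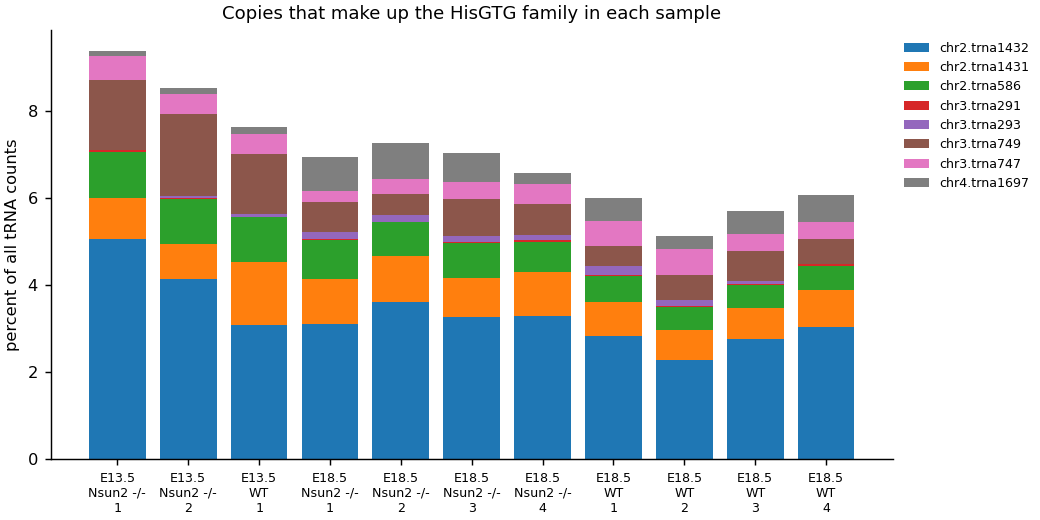
Share of all tRNA gene counts (y axis, percent) taken by each HisGTG copy with reads, stacked for each of the 11 samples (x axis). The trna749 block shrinks from 1.37% to 1.90% at E13.5 to 0.464% to 0.835% at E18.5, and the trna1697 block grows from 0.122% to 0.161% to 0.274% to 0.827%.

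Taken by chromosome, shares within the family do not depend on how libraries are scaled, but they add up to a fixed sum, so that a copy that gains lowers the others. Chromosome 2 gave 75.3% and 70.2% of the family in Nsun2 -/- and 72.7% in WT at E13.5. At E18.5 it gave 72.5%, 74.9%, 70.3% and 75.8% in Nsun2 -/- and 70.0%, 68.0%, 70.1% and 73.0% in WT. The ranges lay within each other, and the difference was -0.901 percentage points (exact two-sided permutation of the stages within genotype, p = 0.64).

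Chromosome 3 gave 23.4% and 28.3% in Nsun2 -/- and 25.2% in WT at E13.5. The values at E18.5 were 16.2%, 13.7%, 20.1% and 20.1% in Nsun2 -/- and 21.1%, 25.9%, 20.9% and 16.7% in WT. All but 1 of the 8 samples lay below the E13.5 range. The difference was -6.19 points (exact permutation p = 0.04, where 75 arrangements allow no value below 0.0133), and after adjustment over the 2 chromosome shares it did not pass (exact permutation, adjusted p = 0.08). With the genotypes pooled it was -6.30 points and passed narrowly (exact permutation p = 0.0242, adjusted p = 0.0484). Over all samples of a stage, among the copies of chromosome 3 with reads, only trna749 had a lower mean share at E18.5, with 9.98% against 19.1% at E13.5. The mean shares of the others rose, from 5.82% to 6.90% for trna747, 0.564% to 1.97% for trna293 and 0.180% to 0.470% for trna291. These means mix the genotypes unequally. Within Nsun2 -/- the mean share of trna747 went from 5.66% down to 5.25%. In WT it went from 6.15%, in a single sample, up to 8.55%. Chromosome 4, with 1 copy, gave a mean of 1.64% at E13.5 and 8.85% at E18.5.

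**Figure D4:**
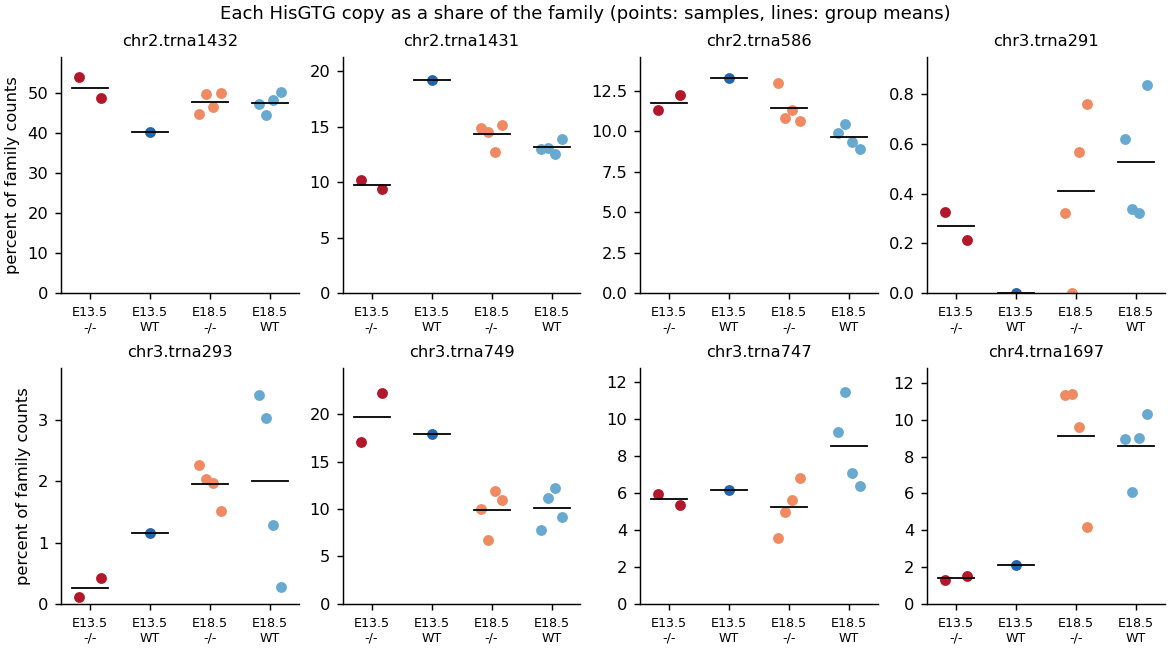
Share of the family's counts (y axis, percent, from 0, with its own scale in each panel) for the 8 HisGTG copies with reads, by stage and genotype (x axis). Points are samples and lines are group means. For trna749 all samples at E13.5 lie above those at E18.5, and for trna1697 below.

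The second comparison was that of Nsun2 -/- with WT at E13.5, in samples that played no part in choosing the family. The WT arm is 1 sample, so its spread was taken from all groups of the fit. HisGTG was 0.31 higher on the log2 scale (standard error 0.14) and did not pass (edgeR adjusted p = 0.286). No family of 47 was called (0%), with 7 at an unadjusted p under 0.05, HisGTG among them, and 0 by DESeq2. Without Nsun2 -/- replicate 1 at E13.5, 3 families were called, 2 higher and 1 lower, and HisGTG was not 1 of them. Likewise 0 of 155 tRNA genes (0%) and 0 of the 7 tested copies were called, with 12 genes at an unadjusted p under 0.05, 2 of them HisGTG copies, and 0 by DESeq2.

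These 2 copies are the neighbours on the minus strand of chromosome 2, and their values pointed in opposite directions. The log2 difference of trna1432 was 0.60 (standard error 0.19) and that of trna1431 was -0.72 (standard error 0.20), both with an edgeR adjusted p of 0.137. Of the reads of this pair, trna1431 took 15.9% (13.2% to 19.1%) and 16.2% (12.3% to 21.1%) in the Nsun2 -/- samples and 32.4% (27.4% to 37.8%) in the WT sample at E13.5. At E18.5 it took between 20.6% and 25.0% in the 8 samples of both genotypes. The WT sample at E13.5 lay above the other 10 samples. The next highest was Nsun2 -/- replicate 1 at E18.5 with 25.0% (19.3% to 31.7%), and the intervals of these samples overlap. With no second WT sample at E13.5 the spread is unknown. The listed full-length sequence is the same for both copies, so reads of this kind could not be placed by sequence alone. Without trna1432, the highest copy, the family's log2 difference at E13.5 was 0.01.

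For the other tested copies the log2 differences at E13.5 were 0.34 for trna749, 0.14 for trna747, 0.05 for trna586, -0.38 for trna1697 and -2.06 for trna293. Their standard errors were 0.21, 0.33, 0.21, 0.63 and 1.11, and their edgeR adjusted p-values lay between 0.637 and 0.917. None of them passed.

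At E18.5, the contrast through which the family was chosen, HisGTG was 0.34 higher in Nsun2 -/- on the log2 scale (standard error 0.075). Beside it, 6 of 45 families (13.3%) and 10 of 106 tRNA genes (9.43%) were called, from which nothing is read about a family chosen on this contrast. By copy, trna586 was 0.56 higher (standard error 0.15), trna1431 0.42 (0.13), trna1697 0.41 (0.27), trna1432 0.31 (0.10) and trna749 0.29 (0.19). The exception in sign was trna747 at -0.39 (0.23). With each sample left out the signs stayed the same, which is no support, as these samples chose the family. The sizes moved. The value of trna1697 was 0.26 without Nsun2 -/- replicate 2, 0.26 without WT replicate 2 and 0.64 without Nsun2 -/- replicate 4. That of trna749 was 0.18 without Nsun2 -/- replicate 3, and that of trna747 was -0.23 without Nsun2 -/- replicate 1 and -0.26 without WT replicate 2. In shares of all counts, trna586 and the sum of the family did not overlap between genotypes, and neither did trna1431 or trna1432. By contrast the samples of trna749, trna1697 and trna747 overlapped. Overlap was not counted over all tRNA genes, and this contrast chose the family, so nothing is read from the copies without overlap. Counts of trna293, at 7, 7, 7 and 4 in Nsun2 -/- and 11, 9, 4 and 1 in WT, spread over the whole range within WT. Whether the genotype difference itself differed between stages was not tested.

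**Figure D5:**
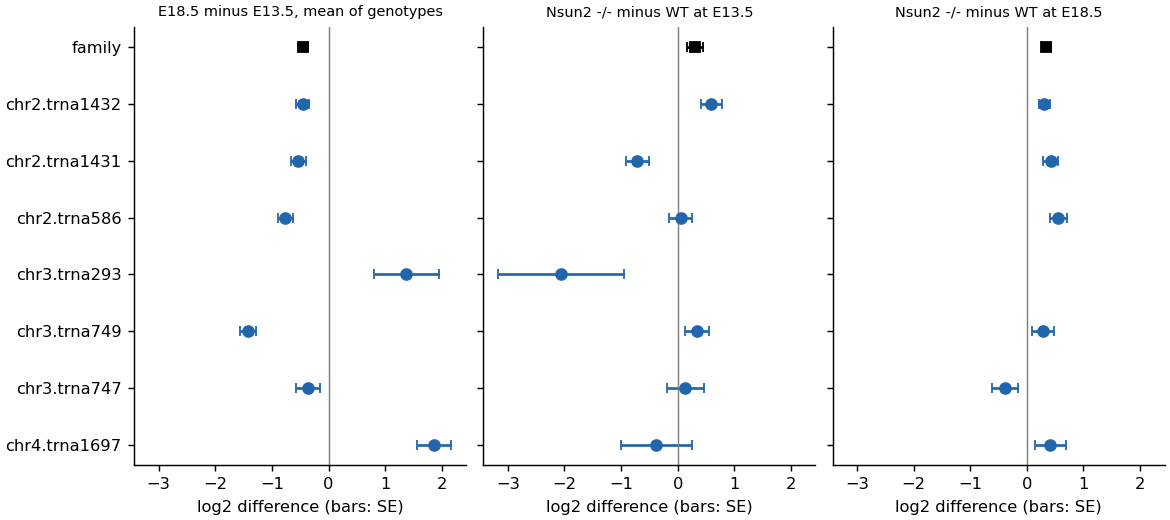
Log2 differences (x axis) of the HisGTG family (black squares) and its tested copies (blue circles) with standard errors as bars, for E18.5 minus E13.5, and for Nsun2 -/- minus WT at E13.5 and at E18.5. Between stages trna749 is lowest at -1.42 and trna1697 highest at 1.86, and at E13.5 trna1431 and trna1432 lie on opposite sides of 0.

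The tRNA genes around the copies were taken next. Of 11 tRNA genes of other families within 20 kb of a copy, 4 could be tested between stages, 1 was lower and 0 were higher, beside 17.4% lower and 11.6% higher among all genes, and the median log2 difference was -0.67. The one that fell was chr3.trna752-GlyCCC, a glycine tRNA, at -1.49 (standard error 0.12, edgeR adjusted p = 9.55e-12). No tRNA gene of another family lay within 20 kb of the chromosome 2 cluster or of trna1697. Of the 6 other tRNA genes of chromosome 2, 3 were tested and 1 was higher, and of the 38 others of chromosome 3, 11 were tested, with 1 higher and 2 lower, where 29% of all genes were called. At E13.5 none of the genes of these lists was called between genotypes.

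The families whose profile over the 11 samples was most like that of HisGTG were SeC(e)TCA, ArgTCT and LysTTT, the tRNAs of selenocysteine, arginine and lysine. The root mean square difference of their centred log2 CPM was 0.165, 0.169 and 0.210, among 42 families, where HisGTG itself had a standard deviation of 0.306. For single copies the nearest gene of another family, among 67, was chr14.trna209-ArgACG for trna1431 (0.170), chr7.trna86-SeC(e)TCA for trna1432 (0.210) and chr1.trna1184-LysTTT for trna586 (0.224). It was chr1.trna485-LysTTT for trna747 (0.251) and chr13.trna87-GlnCTG for trna749 (0.287). These are descriptions over samples that share their libraries.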

How the data were processed

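Small RNA libraries of size-selected, deaminoacylated RNA from the frontal lobe were analysed in 11 samples, grouped by their labels. The deposited values are raw counts of reads per tRNA gene, which the authors made by trimming adapters, aligning with bowtie (a single best place, at most 2 mismatches), realigning unmapped reads after removing CCA ends, and counting with featureCounts 1.4.4 without a strand setting. The methods name GRCm38/mm10, the file headers an mm9 tRNA annotation. Identical copies lose reads, and 118 of 433 genes had no count.

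Counts were tested per gene and per family with edgeR 4.0.16 (R 4.3.3), with TMM normalization, filterByExpr with a minimum count of 10, quasi-likelihood tests and Benjamini-Hochberg adjustment over all features tested. A call is an adjusted p under 0.05. Standard errors are the log2 difference divided by the square root of F. The comparison at E18.5 used 8 samples, the others all 11 in 1 fit with 4 groups. Family shares by chromosome were compared with exact permutation tests (scipy 1.17.1).

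All HisGTG copies are named. Other genes are named by likeness (centred log2 CPM, prior count 2, at least 10 counts in every sample) or by lying within 20 kb of a copy and being called. The members, lists and tests were chosen with earlier results of these data known, among them the difference of trna1431 between stages. Alternatives were DESeq2 1.42.0, other normalizations and filters, the replicate number as a block, and leaving out samples. Library totals before the filter were added as an alternative after seeing the data. Several pairs of samples of a group agreed within sampling noise at this depth by a chi-square test over all genes, with p = 0.933 for Nsun2 -/- replicates 1 and 2, 0.858 for 2 and 3 and 0.407 for WT replicates 3 and 4 at E18.5. Other pairs differed by more than this noise. By the same chi-square test p was 4.77e-07 for WT replicates 2 and 4 and 1.17e-06 for WT replicates 2 and 3 at E18.5. It was 8.63e-05 for the Nsun2 -/- samples at E13.5. All samples were kept apart, and Nsun2 -/- replicates 1 and 2 at E18.5 were summed in an alternative. The fits were also run on simulated data, with changes larger than most of those given here. That run does not tell how often changes of the sizes seen here would be found.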

Additional observations from a re-analysis of the deposited data

Results flagged for a closer look

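Among 40 groups of 4 samples examined for a sample far from the others, 1 stood out, where chance gives about 1 in 20. This was trna586 in WT replicate 1 at E18.5, with 0.594% of all counts against 0.531% to 0.540% in the other 3. Its genotype difference pointed in opposite directions at the 2 stages when taken as a share of the family, with -1.53 percentage points (Nsun2 -/- minus WT) at E13.5 and 1.76 at E18.5. The share of trna1431 in all counts did likewise, with -0.589 points at E13.5 and 0.244 at E18.5. Both opposite directions set 2 samples against 1 at E13.5, and the difference between the stages was not tested.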

How the results depend on the processing

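The fall of the family between stages kept its direction and passed in 20 of 20 alternatives (log2 -0.59 to -0.39), with 4 to 6 of the copies called against 5. At E13.5 no copy was called in any of 18 alternatives, and the family's difference lay between 0.01 and 0.36. The copy trna293, tested through 1 sample, lay between 0.94 (without Nsun2 -/- replicate 1 at E13.5, edgeR adjusted p = 0.349) and 1.85 (under the block) over 16 alternatives, on both sides of the threshold. The family's difference at E18.5 was 0.27 with upper-quartile normalization, where 4 genes and 1 family were called against 10 and 6, and 0.29 to 0.37 with a sample left out, where 4 to 9 genes and 3 to 6 families were called. The share of chromosome 2 turned to 6.35 points over the copies with at least 10 counts in every sample (exact permutation p = 0.04), which leaves out chromosome 4 by construction, and lay between -2.16 and 0.358 with each sample left out, above 0 without Nsun2 -/- replicate 1 at E13.5. For chromosome 3 the difference was -5.78 points with replicates 1 and 2 summed (exact permutation p = 0.08) and between -7.40 and -4.98 with each sample left out, where the exact p reached 0.12 and 9 of 10 values no longer passed; the fewer arrangements also raise the smallest p. It was -10.7 points without trna1432 and -6.35 over the copies with at least 10 counts in every sample (exact permutation p = 0.04 for each). With chromosome 4 left out, the latter is the value of chromosome 2 with its sign turned, and not a separate result. Without the WT sample at E13.5 neither of the comparisons that need it has a value. DESeq2 called 31 genes between stages against 45, 17 higher and 14 lower, and library totals before the filter gave 22 and 22. Same-numbered samples at E18.5 deviated with correlations of 0.248, 0.089, 0.180 and -0.127, and 1 of 4 correlated best with its own number. No pairing by number was seen, but counting error at this depth could hide it. With the replicate number as a block the family differed by -0.44 between stages, 0.35 at E13.5 and 0.35 at E18.5, where 3 genes were called against 10. For 1 of the Nsun2 -/- samples at E13.5 the number in the label is not that of its file, so the blocks that use it are in doubt.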
